A study of Mus musculus with 16 samples.

Results

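Imprinted genes are transcribed mainly from the copy inherited from one parent, and 35 of them, known to be imprinted in the mouse, were followed in brain oligodendrocytes after perinatal exposure to bisphenol A (BPA). They were picked by name, as genes known to be imprinted, and all 35 are among the 32207 genes of the deposited count table. RNA of juvenile OF-1 mice, an outbred stock, was sequenced in 16 libraries, with 4 libraries in each of 4 groups: male BPA, male control, female BPA and female control. The design text names 9 control mice and 10 BPA-exposed mice, and the sample titles do not say how many mice each library holds. The mothers of the BPA groups drank water with BPA from gestational day 7 through lactation, at a labelled dose of 40 µg/kg/day. The controls were unexposed mice of the same age, and no group carries a transgene or a mutation per the labels. Brains were taken at postnatal day 16 and cells carrying the O4 antigen, a surface marker of the oligodendrocyte lineage, were collected with magnetic beads. Litters are not labelled, and littermates share their exposure, so the p-values of the exposure contrasts could be too low. They measure the spread between these libraries.

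At an imprinted cluster, DNA methylation laid down in the egg or the sperm marks a control region, and that mark sets which parental copy of the neighbouring genes is used. Long non-coding RNAs such as Airn and Kcnq1ot1 are made from one copy and silence protein-coding neighbours on the same chromosome. Many imprinted genes govern growth before and after birth, and in the brain several act in neurons and glia. By the copy known to be used where they are imprinted, 22 of the 35 are mostly paternally and 13 mostly maternally expressed. The copy used in these O4-sorted cells was not measured. The poly(A) counts do not tell the 2 parental copies apart, so a change in allele use at a constant total cannot be seen in them. In sorted bulk cells, fewer cells of a type and less RNA per cell cannot be told apart.

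Library totals ran between 23603816 and 42575326 counts. The summed level of 10 myelin markers was 109806 to 155623 CPM (a gene's counts scaled to the library total) in every library, against 26 to 41.1 CPM for 10 neuronal markers. Male BPA library 2 stood apart, with 7058 CPM for the 10 astrocyte markers, against 1042 to 2788 CPM in the other 15 libraries. The same library had 128 CPM for the mural and fibroblast markers, against 25.6 to 79.3 CPM elsewhere, where Dpt was at 0 in some libraries. In males the oligodendrocyte precursor markers summed to 2004 to 2586 CPM after BPA, against 2768 to 3143 CPM in controls. The committed and newly formed markers summed to 5554 to 6502 CPM in male BPA and 6676 to 8043 CPM in male control libraries. The ranges of these last 2 lists do not overlap between male BPA and male control libraries, and their part in the results in males was not tested. Xist and Y-linked counts matched the sex label in all 16 libraries. The summed level of Xist, Ddx3y, Eif2s3y, Kdm5d and Uty was 545 CPM in male BPA 4, against 217 to 286 CPM in the other male libraries. Their mean log2 CPM was 1.75 in female BPA 1, against -1.22 to -0.63 in the other female libraries. Why these libraries stood apart was not tested.

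The minimum count set for testing was met by 32 of the 35 genes. The exceptions were Phlda2, a placental growth inhibitor, with 11 counts in all 16 libraries together, Mirg, a non-coding RNA that hosts microRNAs, with 80, and Magel2, a ubiquitin ligase partner of the Snrpn cluster, with 55. Phlda2 was at 0 in 8 libraries and Magel2 in 2, which allows up to 3 counts, or 0.0707 to 0.127 CPM between the deepest and the shallowest library. At the stricter measure of 1 CPM in every library, 24 genes were detected.

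Levels of different genes were compared on the authors' normalised counts per kb of transcript, whose length term can raise genes with short transcripts. Gnas, which encodes the stimulatory G protein subunit, led with a mean of 14469 per kb, higher than 98.6% of the 16339 tested genes on that scale. Counts per gene do not separate the transcripts of Gnas, which start at several promoters. Ube3a, a ubiquitin ligase, followed with 4539 and Impact, a regulator of translation under stress, with 4340 per kb. These 2 did not differ beyond their spread, as Ube3a lay between 3854 and 4949 and Impact between 3574 and 4880 per kb. Next came Cdkn1c, a cell cycle inhibitor, at 3108, Blcap at 2689, Nnat, a small membrane protein of the endoplasmic reticulum, at 2421 and Igf2r, the receptor that clears insulin-like growth factor, at 2178 per kb. The ranges of Cdkn1c (2231 to 4495), Blcap (2361 to 3335) and Nnat (1750 to 3660) overlapped, so their order is not resolved. Inpp5f, a phosphoinositide phosphatase, was the eighth at 1597 per kb and lay within the range of Snrpn, a splicing protein, at 1493. At the low end of the tested genes stood Dlk1 at 10.6, Asb4 at 5.4, Zdbf2 at 2.92 and the very long Kcnq1ot1 at 1.97 per kb.

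**Figure D1:**
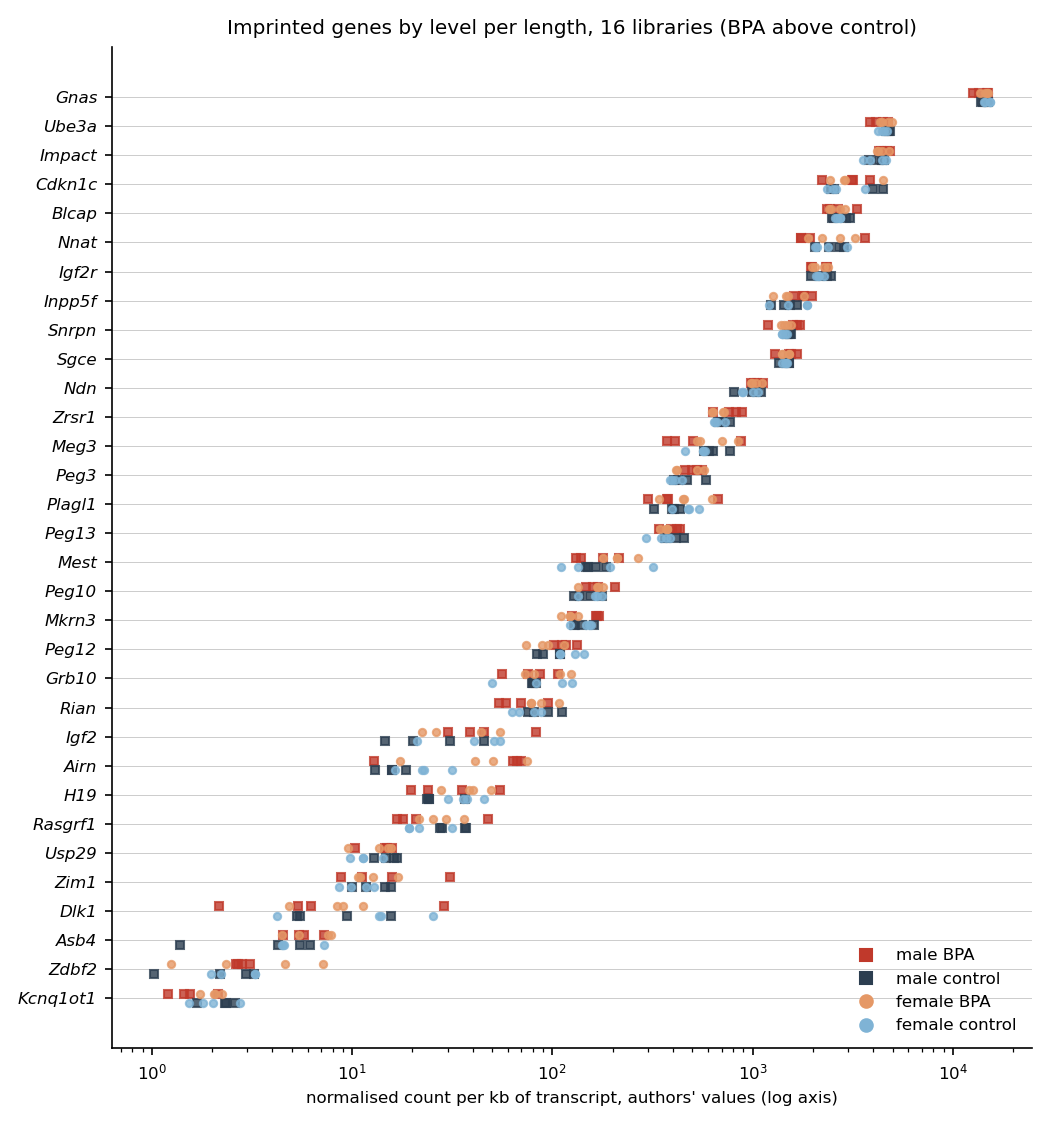
Level of the 32 tested imprinted genes in the 16 libraries, as the authors' normalised counts per kb of transcript on a log axis, with BPA libraries (red and orange) above control libraries (dark and light blue) in each row. Means run between 14469 per kb for Gnas and 1.97 per kb for Kcnq1ot1, and for every gene BPA and control libraries overlap.

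The first comparison asked whether any imprinted gene differed with BPA. None passed the test: 0 of the 32 tested genes passed an adjusted p of 0.05 over both sexes, in males or in females (limma-voom, Benjamini-Hochberg over 16339 genes). Few genes passed at all, 0.0184% over both sexes, 0.00612% in males and 0% in females. At an unadjusted p under 0.05, 1 imprinted gene stood out over both sexes, 4 in males and 1 in females, or 3.12%, 12.5% and 3.12% of those tested. The background shares at that p were 7.69% over both sexes, 7.96% in males and 4.55% in females. These small counts depend on single libraries. With 1 library left out in turn, 1 to 3 imprinted genes were at that p over both sexes, 1 to 9 in males and 0 to 3 in females. Without male BPA 2, the library with the most astrocyte RNA, the 9 in males (28.1%, against 11.1% of all genes) were Mkrn3, Snrpn, Zrsr1 and Inpp5f, higher after BPA, and Kcnq1ot1, Nnat, Meg3, Rasgrf1 and Rian, lower after BPA, and none passed adjustment (lowest adjusted p = 0.238, limma-voom). The count in males was 1 without male BPA 1, male BPA 3, male control 1 or male control 4. In females the count was 0 without female control 1, 3 without female control 4, and 2 without male BPA 2, male control 2, female BPA 1 or female BPA 3. Over both sexes it was 3 without female control 3, and 4 without male BPA 2 and female BPA 1 together. No imprinted gene had BPA libraries that were all above or all below the controls, over both sexes or within 1 sex, where 0.0857% of all genes did over both sexes, 4.45% in males and 3.33% in females.

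The median log2 fold change of the tested imprinted genes was 0.025 over both sexes, 0.017 in males and 0.048 in females, against 0.003, 0.009 and 0.002 for all genes. Over both sexes 20 values were above 0 and 12 below. Of the paternally expressed genes 15 of 21 lay above 0, and of the maternally expressed ones 5 of 11, where 51.2% of all genes did. In males these were 15 of 21 and 3 of 11, where 52.5% of all genes did. In females they were 13 of 21 and 8 of 11, where 50.6% of all genes did, so the split was not the same in the 2 sexes. For the 17 genes at a mean of 10 CPM or more, all 17 intervals (95%) over both sexes lay within a 1.5-fold change, and 15 within 1.3-fold. Cdkn1c and Nnat were the 2 whose intervals reached further. Precision was lower within 1 sex, with 13 of the 17 within 1.5-fold and 10 within 1.3-fold in males, and 15 and 11 in females. For the difference between the sexes the numbers were 12 and 9. The other 15 tested genes were lower in CPM, and the interval of Dlk1, one of them, was -1.38 to 0.63 on the log2 scale.

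**Figure D2:**
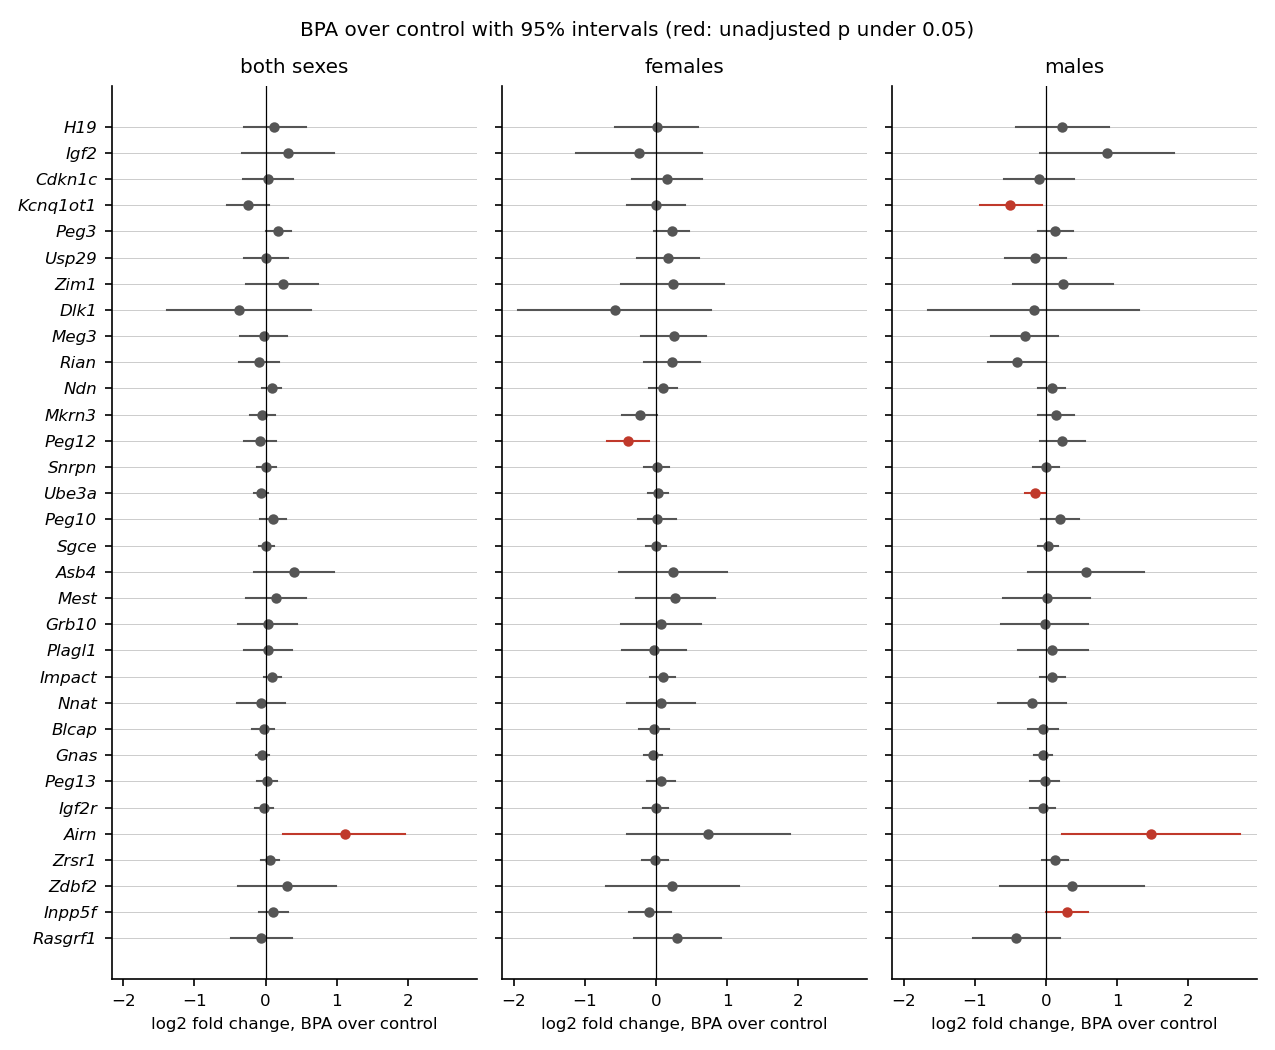
Log2 fold change of BPA over control for 32 imprinted genes over both sexes, in females and in males; points are estimates, bars are 95% intervals, and red marks an unadjusted p under 0.05. The highest point is Airn, at 1.11 over both sexes, and the intervals of most abundant genes such as Gnas (-0.13 to 0.04) are narrow and include 0.

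The gene with the smallest p over both sexes was Airn, the paternally made antisense RNA that silences Igf2r. In male BPA libraries Airn had 0.349, 1.77, 1.91 and 1.82 CPM, against 0.439, 0.512, 0.432 and 0.354 CPM in male controls. Female BPA libraries had 1.39, 1.12, 0.474 and 2.03 CPM, against 0.451, 0.633, 0.865 and 0.613 CPM in female controls. In all, 6 of the BPA libraries were thus above all 8 controls, while male BPA 1 and female BPA 3 lay in or just below the range of the controls. The log2 fold change was 1.11 ± 0.40 (SE) over both sexes, with a 95% interval of 0.25 to 1.96 (unadjusted p = 0.0143, adjusted p = 0.497, limma-voom). It was 1.48 ± 0.59 in males (adjusted p = 0.544) and 0.73 ± 0.54 in females (adjusted p = 0.999), and the difference between the sexes was -0.74 ± 0.80 (adjusted p = 0.999). Airn had few counts here, 515 in all and 12 to 71 per library, so the difference rests on few reads.

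Igf2r, the gene that Airn overlaps on the opposite strand and silences on the paternal copy, did not differ between the groups beyond its spread. BPA libraries ran between 45.9 and 55.8 CPM with a median of 50.6, and controls between 46.2 and 57.6 CPM with a median of 50.6. Its log2 fold change was -0.03 ± 0.06 over both sexes, with an interval of -0.15 to 0.10 (adjusted p = 0.957, limma-voom). The kit marks strand, but the strand setting of the counting is not given in the sources used here. Reads of an overlapping pair may therefore be shared, as also for Kcnq1ot1 in Kcnq1, Nnat in Blcap, Zrsr1 in Commd1 and Peg13 in Trappc9. The sequence before Airn is shown since it is the gene with the largest difference. It is the RefSeq promoter, from 250 bases before to 50 bases after the start, at chr17:12741061-12741360 on the plus strand of GRCm38.p6, with its CpG sites in capitals.
Airn: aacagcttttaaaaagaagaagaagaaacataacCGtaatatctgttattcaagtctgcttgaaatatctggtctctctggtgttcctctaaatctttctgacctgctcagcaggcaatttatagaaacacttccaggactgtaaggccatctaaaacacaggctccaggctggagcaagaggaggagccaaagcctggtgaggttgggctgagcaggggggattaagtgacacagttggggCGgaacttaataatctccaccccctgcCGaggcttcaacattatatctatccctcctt
It holds 3 CpG sites, where the median over 32851 promoters of this length was 7.

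The 4 tested genes of the growth-control clusters on chromosome 7 were H19, Igf2, Cdkn1c and Kcnq1ot1. Kcnq1ot1, the paternal RNA that silences Cdkn1c, had 3.87, 4.23, 3.25 and 5.81 CPM in male BPA libraries, against 6.4, 7.1, 4.55 and 6.26 CPM in male controls. The 2 male groups overlap, with 3 of the 4 BPA libraries below every control. Its log2 fold change in males was -0.50 ± 0.21 (unadjusted p = 0.0282, adjusted p = 0.553, limma-voom). In females the libraries ran between 4.72 and 6.05 CPM after BPA and between 4.16 and 7.52 CPM in controls, and the groups overlap throughout. The effects in the 2 sexes differed by 0.50 ± 0.28 (females minus males, adjusted p = 0.999).

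Cdkn1c, its target, varied widely between libraries of every group. BPA libraries had 43 to 87.3 CPM with a median of 58.9, and controls 45.7 to 87.4 CPM with a median of 50.4. The log2 fold change was 0.03 ± 0.16 over both sexes (interval -0.32 to 0.38, adjusted p = 0.984, limma-voom).

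H19, a maternal non-coding RNA, and Igf2, the paternal growth factor that shares its enhancers, were both near 1 CPM. H19 ran between 0.678 and 1.89 CPM in BPA libraries with a median of 1.26, and between 0.823 and 1.56 CPM in controls with a median of 1.14. Igf2 had 1.08, 2.34, 1.27 and 0.841 CPM in male BPA libraries, against 0.412, 0.867, 0.565 and 1.27 CPM in male controls. In females it had 1.24, 0.729, 0.624 and 1.52 CPM after BPA, against 1.43, 1.13, 0.593 and 1.53 CPM in controls. For both genes the groups overlap, and the highest value of each was in male BPA 2, the library with the most astrocyte and fibroblast RNA. Neither difference over both sexes passed the test, at 0.12 ± 0.20 for H19 (adjusted p = 0.939) and 0.31 ± 0.30 for Igf2 (adjusted p = 0.873, limma-voom). Without male BPA 2 and female BPA 1 the value of H19 was -0.04. Igf2 shares 61.2% of its 50-base words with another annotated gene, so its counts are uncertain.

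In the Dlk1 and Meg3 cluster on chromosome 12, Meg3 and Rian, maternal non-coding RNAs made in the same direction, had opposite signs in the 2 sexes. Rian had 4.19, 5.11, 3.72 and 3.69 CPM in female BPA libraries, against 3, 4.17, 3.24 and 3.87 CPM in female controls. In males it had 2.56, 4.53, 2.78 and 3.31 CPM after BPA, against 5.33, 3.86, 3.59 and 4.49 CPM in controls. Male BPA 2 is the single exposed male library within the male control range. The BPA effect was 0.23 ± 0.18 in females and -0.41 ± 0.19 in males, and the 2 differed by 0.63 ± 0.26 on the log2 scale (unadjusted p = 0.0299, adjusted p = 0.999, limma-voom). Meg3 had 16.4, 19.6, 12.6 and 12.3 CPM in female BPA libraries and 10.7, 13.6, 13.3 and 13.2 CPM in female controls. In males it had 9.5, 20.5, 8.68 and 11.8 CPM after BPA and 18, 13.3, 14.7 and 14 CPM in controls. Again 3 of 4 exposed male libraries were below every male control and male BPA 2 was above them all. The difference between the sexes was 0.55 ± 0.31 (adjusted p = 0.999, limma-voom). The 10 oligodendrocyte precursor markers had the same signs, with 10 of 10 higher in females (median log2 fold change 0.164) and 0 of 10 higher in males (median -0.385), and none was called. For the difference between the sexes the median was 0.547, and 7 of 10 had an unadjusted p under 0.05 (70%, against 4.72% of all genes, limma-voom). At that p there were 4 of 10 in males (40%, against 7.96% of all genes) and 0 in females (against 4.55%). The sum of these markers was 2097 to 4030 CPM in female BPA libraries and 2326 to 2874 CPM in female controls. Their part in the differences of Meg3 and Rian with BPA was not tested, and their relation to both genes within groups is given below. Dlk1, the paternal Notch-like protein of the cluster, had only 3 to 44 counts per library, with a log2 fold change of -0.37 ± 0.47 over both sexes (adjusted p = 0.911).

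The Snrpn cluster, the mouse counterpart of the human Prader-Willi and Angelman region, gave the smallest p of the test between the sexes. Peg12, a paternally expressed intronless gene, had 7.37, 5.62, 8.81 and 6.86 CPM in female BPA libraries, against 11.1, 8.41, 10 and 8.42 CPM in female controls. Male BPA libraries had 8.57, 7.89, 8.98 and 10.3 CPM, against 6.94, 6.47, 8.44 and 8.41 CPM in male controls. In all, 3 of the 4 exposed female libraries lay below all female controls, and 3 of the 4 exposed male libraries lay above all male controls. The effect was -0.39 ± 0.14 in females (unadjusted p = 0.0152, adjusted p = 0.999) and 0.23 ± 0.15 in males (adjusted p = 0.765), and these differed by -0.62 ± 0.20 (unadjusted p = 0.00818, adjusted p = 0.999, limma-voom).

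Mkrn3, a paternal ubiquitin ligase known for restraining the onset of puberty, had the same signs. Female BPA libraries had 9.19, 8.15, 10 and 9.11 CPM, against 11.6, 11, 11.3 and 9.22 CPM in female controls. In males the values were 12.4, 9.38, 12.2 and 12.7 CPM after BPA, against 10.5, 9.62, 9.63 and 12 CPM in controls. The groups overlap in both sexes, and the effects differed by -0.37 ± 0.17 (females minus males, unadjusted p = 0.0445, adjusted p = 0.999, limma-voom). Over all 32 genes 3 reached an unadjusted p under 0.05 for this difference, Rian, Peg12 and Mkrn3, or 9.38%, against 4.72% of all genes, and 0% of all genes passed adjustment. With 1 library left out in turn the number ran between 1 and 7. It was 1 without male control 1, female control 1 or female BPA 2, and 7 without male BPA 2 (21.9%, against 9.29% of all genes), when Zrsr1, Nnat, Meg3 and Rasgrf1 were also at that p.

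Snrpn and Ube3a of that cluster were abundant. Snrpn ran between 70.3 and 100.4 CPM in BPA libraries with a median of 88.6, and between 82.5 and 91.9 CPM in controls with a median of 87. Its log2 fold change over both sexes was 0.01 ± 0.06, with an interval of -0.12 to 0.14 (adjusted p = 0.987, limma-voom), and it shares 21.7% of its 50-base words with another annotated gene. Ube3a, maternally used in neurons, had 85.8, 93.4, 106 and 101 CPM in male BPA libraries and 107, 104, 107 and 109 CPM in male controls. The male groups overlap by 1 library, and the difference was -0.15 ± 0.06 (unadjusted p = 0.0301, adjusted p = 0.565, limma-voom). In females Ube3a ran between 97 and 110.4 CPM after BPA and between 95.5 and 106 CPM in controls, a difference of 0.03 ± 0.06 (adjusted p = 0.999). Ndn, a paternal survival factor of neurons, had 106 to 121 CPM in BPA libraries and 87.2 to 119.6 CPM in controls (log2 fold change 0.09 ± 0.06, adjusted p = 0.824).

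**Figure D3:**
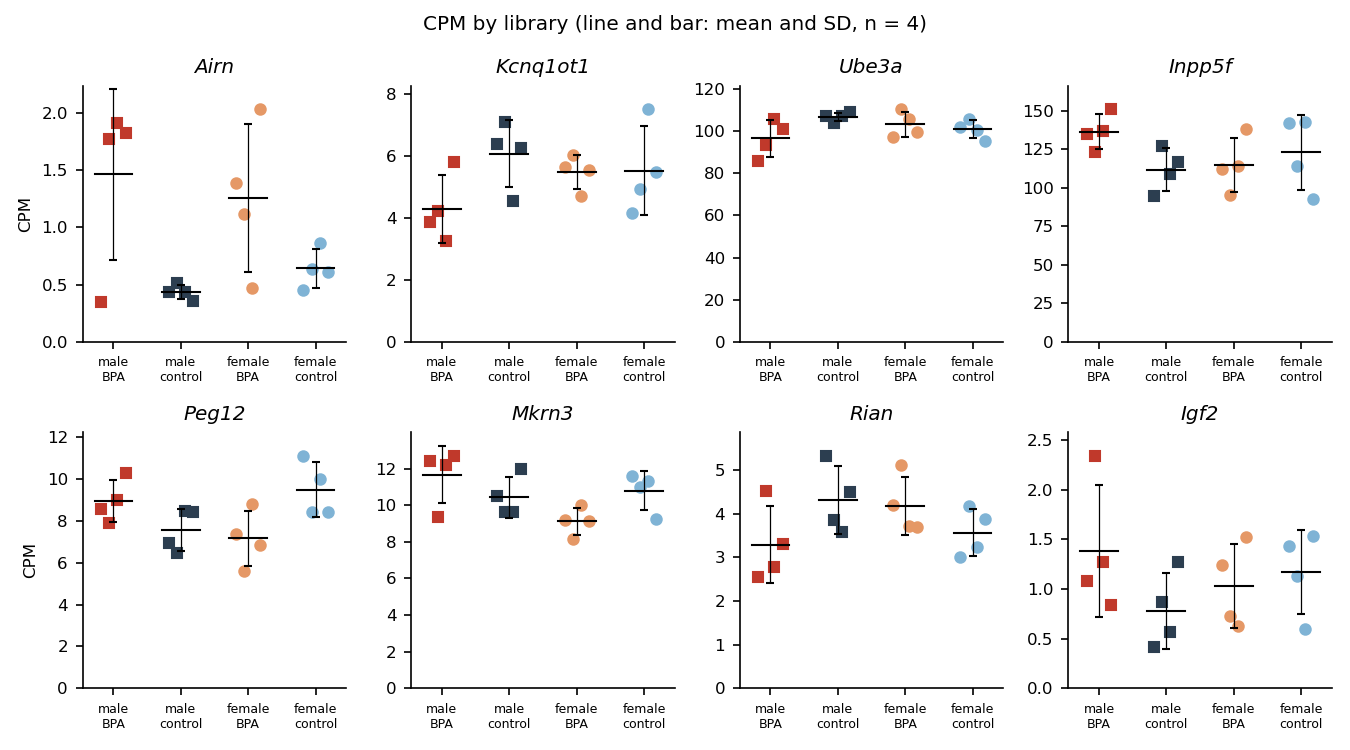
CPM of 8 imprinted genes in each library, by group, with the group mean (line) and SD (bar, n = 4). Airn is at 0.865 CPM or lower in all 8 control libraries and at 1.12 CPM or higher in 6 of 8 BPA libraries, and Peg12, Mkrn3 and Rian have group means that differ in opposite directions in the 2 sexes.

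Peg3, a paternal zinc finger protein, had the second smallest p over both sexes. BPA libraries ran between 58.2 and 80 CPM with a median of 71.9, and controls between 54.6 and 82 CPM with a median of 58.4. The groups overlap, and 1 male control held the highest value of all 16 libraries. The log2 fold change was 0.18 ± 0.08, with an unadjusted p of 0.0507 and an adjusted p of 0.656 (limma-voom). Its neighbours Usp29, which shares the same start region, and Zim1 had 0.01 ± 0.14 and 0.24 ± 0.24 (adjusted p = 0.993 and 0.88). The value of Zim1 was -0.02 without male BPA 2 and female BPA 1.

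Of the genes at single loci, Inpp5f, whose imprinted form is a brain transcript that starts within the gene, had 135, 123, 137 and 151 CPM in male BPA libraries, against 94.5, 127, 109 and 117 CPM in male controls. In females it had 112, 95.3, 114 and 138 CPM after BPA, against 142, 114, 143 and 92.9 CPM in controls. The male groups overlap by 1 library on each side and the female groups throughout. The difference in males was 0.29 ± 0.14 (unadjusted p = 0.0488, adjusted p = 0.625, limma-voom), and -0.09 ± 0.14 in females (adjusted p = 0.999). Counts per gene do not separate the imprinted form from the rest of Inpp5f.

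The 3 most abundant genes not yet described had narrow differences. Gnas ran between 611 and 718 CPM in BPA libraries with a median of 697, and between 664 and 739 CPM in controls with a median of 698. The log2 fold change of Gnas was -0.05 ± 0.04, with an interval of -0.13 to 0.04 (adjusted p = 0.861, limma-voom). Impact had 77.4 to 89.9 CPM after BPA with a median of 82, and 66.2 to 86.1 CPM in controls with a median of 80.8, and a log2 fold change of 0.09 ± 0.06 (adjusted p = 0.774). Both differences are small against the range of each gene's own libraries. Blcap had 30.7 to 43.9 CPM after BPA with a median of 33.4, and 32.7 to 40.4 CPM in controls with a median of 35.2 (log2 fold change -0.03 ± 0.07, adjusted p = 0.954). Nnat, which lies within Blcap, ran between 42.8 and 90.8 CPM in BPA libraries with a median of 51, and between 50.2 and 73.5 CPM in controls with a median of 58.9. Its highest value was again male BPA 2, and the log2 fold change was -0.06 ± 0.16 (adjusted p = 0.959).

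For the remaining tested genes the log2 fold change over both sexes lay between -0.06 for Rasgrf1, an exchange factor for Ras, and 0.40 for Asb4, a ubiquitin ligase adaptor. Both groups overlap for all of them. Peg10, a retrotransposon-derived gene, had 25.8 to 39.8 CPM after BPA and 25.2 to 34.5 CPM in controls, and Sgce, a sarcoglycan that starts next to it, 64.2 to 81.9 CPM after BPA and 66.8 to 75.9 CPM in controls. Plagl1, a transcription factor of the imprinted growth network, had 3.96 to 8.81 CPM after BPA and 4.28 to 7.16 CPM in controls. None of these passed adjustment, and neither did Mest, Grb10, Zrsr1, Zdbf2 or Peg13.

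**Figure D4:**
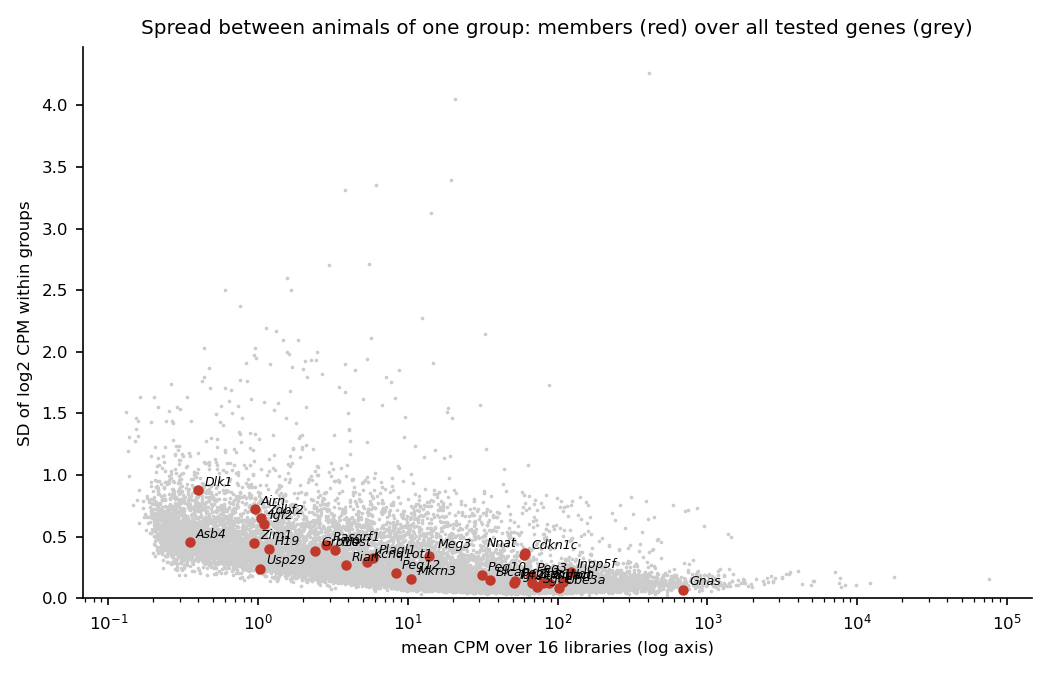
SD of log2 CPM within groups against mean CPM (log axis) for all 16339 tested genes (grey) and 32 imprinted genes (red). Cdkn1c, Meg3 and Nnat lie in the upper part of the cloud at their level, with SDs between 0.344 and 0.365, and Gnas lies low at 0.0715.

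How much an imprinted gene varied between libraries of one group differed widely. Among the 17 genes at 10 CPM or more, the median SD of log2 CPM within groups was 0.14, against 0.115 over 8932 genes at that level. Cdkn1c (0.365), Nnat (0.352) and Meg3 (0.344) varied more than 92.9%, 92.4% and 92.1% of those genes. Gnas at 0.0715, Ube3a at 0.0861 and Sgce at 0.0922 were among the steadier ones. Snrpn, at 0.125, was near the median. No test was made of these ranks.

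Neighbours within a cluster were then compared across the 16 libraries after group means were taken out, in 27 pairs with permutation tests. Of these, 3 passed an adjusted p of 0.05 on both Pearson's r and Spearman's rho, and 1 on rho alone. Pairs of other neighbouring genes were not examined, so these counts cannot be called particular to imprinted clusters. Meg3 and Rian had a Pearson r of 0.88 and a Spearman rho of 0.85 (n = 16, permutation p = 0.00031 and 0.00038, adjusted p = 0.00837 and 0.0103). H19 and Igf2 had r = 0.73 and rho = 0.71 (permutation p = 0.00295 and 0.00456, adjusted p = 0.0398 and 0.0384). Mkrn3 and Peg12 had r = 0.69 and rho = 0.76 (permutation p = 0.00517 and 0.00315, adjusted p = 0.0465 and 0.0384). Within their groups, libraries high in one gene of these pairs were thus mostly high in the other. Without the 2 libraries farthest from the median on the first gene, r was 0.83 for Meg3 and Rian, 0.62 for H19 and Igf2 and 0.69 for Mkrn3 and Peg12. Without male BPA 2, only Meg3 and Rian passed on r (r = 0.81, adjusted p = 0.0389, permutation), and r was 0.64 for H19 and Igf2 and 0.70 for Mkrn3 and Peg12 (adjusted p = 0.158 for each).

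**Figure D5:**
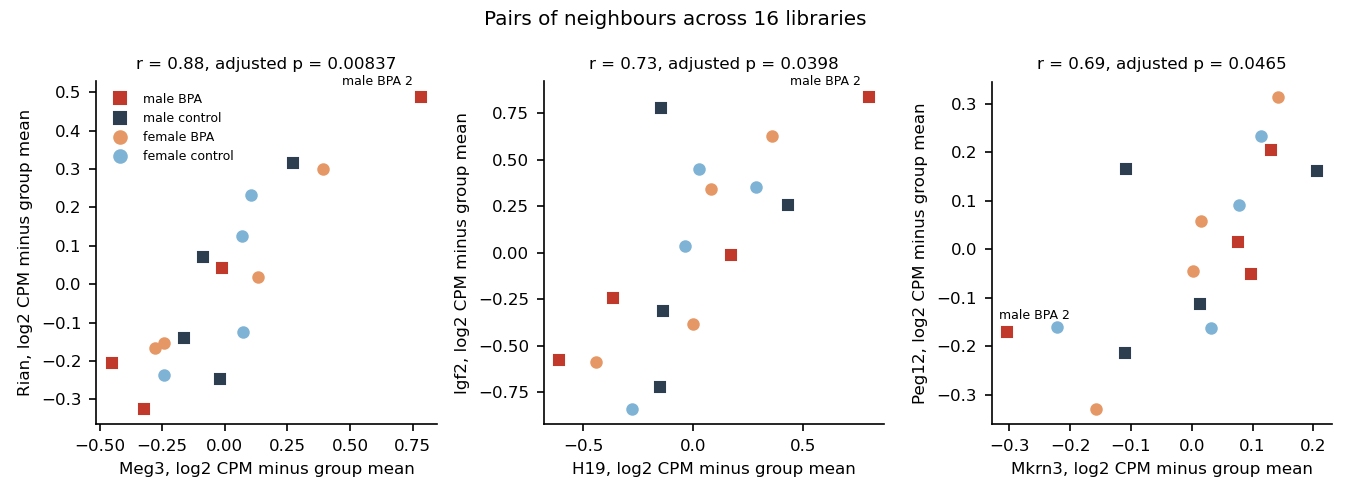
Log2 CPM minus the group mean of 2 neighbouring imprinted genes in the 16 libraries, for Meg3 and Rian, H19 and Igf2, and Mkrn3 and Peg12; the library male BPA 2 is named. The points of Meg3 and Rian run along a line (r = 0.88), and male BPA 2 is at the upper end of the first 2 plots and the lower left of the third.

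Peg10 and Asb4 passed on rho alone, with rho = -0.72 (permutation p = 0.00569, adjusted p = 0.0384) and r = -0.55 (adjusted p = 0.27, permutation). Asb4 had 194 counts in all 16 libraries together. The other pairs did not pass on either measure. Cdkn1c and its silencer Kcnq1ot1 had r = 0.61 (permutation p = 0.0207, adjusted p = 0.139), Peg3 and Usp29 r = -0.36 (adjusted p = 0.555, permutation) and Snrpn and Ube3a r = 0.32 (adjusted p = 0.757, permutation). The r of Nnat and Blcap was 0.65 with all libraries and 0.24 without male BPA 2, and that of Mkrn3 and Snrpn 0.63 and 0.16. Those 2 values rest on that library.

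The sequences before the starts of the genes of 2 called pairs are shown, since members of each pair varied together. They are RefSeq promoters of GRCm38.p6, each 300 bases, 5′ to 3′ on the gene's own strand, with CpG sites in capitals. Meg3 is at chr12:109540746-109541045 and Rian at chr12:109603695-109603994, both on the plus strand. Mkrn3 is at chr7:62420104-62420403 and Peg12 at chr7:62464461-62464760, both on the minus strand.
Meg3: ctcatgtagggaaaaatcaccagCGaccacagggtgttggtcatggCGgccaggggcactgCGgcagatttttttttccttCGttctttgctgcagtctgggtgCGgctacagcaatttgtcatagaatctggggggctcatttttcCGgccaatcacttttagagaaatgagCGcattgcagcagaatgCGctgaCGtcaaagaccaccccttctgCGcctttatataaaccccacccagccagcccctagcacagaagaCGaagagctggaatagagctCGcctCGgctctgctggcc
Rian: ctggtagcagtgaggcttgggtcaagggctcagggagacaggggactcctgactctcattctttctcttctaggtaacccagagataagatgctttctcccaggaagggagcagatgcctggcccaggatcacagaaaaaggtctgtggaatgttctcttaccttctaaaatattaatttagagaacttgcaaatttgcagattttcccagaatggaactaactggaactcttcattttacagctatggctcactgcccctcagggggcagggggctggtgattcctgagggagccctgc
Mkrn3: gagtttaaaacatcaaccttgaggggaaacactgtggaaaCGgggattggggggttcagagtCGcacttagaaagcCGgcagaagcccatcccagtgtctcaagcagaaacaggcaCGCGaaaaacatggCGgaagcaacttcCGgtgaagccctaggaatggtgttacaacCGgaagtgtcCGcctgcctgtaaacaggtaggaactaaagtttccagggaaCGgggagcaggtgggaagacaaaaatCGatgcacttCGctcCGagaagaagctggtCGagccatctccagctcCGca
Peg12: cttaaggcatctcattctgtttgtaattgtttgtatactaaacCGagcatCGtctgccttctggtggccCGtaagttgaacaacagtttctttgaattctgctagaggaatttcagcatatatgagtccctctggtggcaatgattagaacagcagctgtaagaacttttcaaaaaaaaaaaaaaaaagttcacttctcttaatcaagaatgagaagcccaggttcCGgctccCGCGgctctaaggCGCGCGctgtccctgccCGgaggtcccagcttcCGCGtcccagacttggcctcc
Meg3 has 13 CpG sites in this window and Rian 0. Mkrn3 has 15 and Peg12 has 12, against a median of 7 over all promoters. Meg3 has a second promoter in the same table, at chr12:109545148-109545447, with 1 CpG site, and the one with more CpG sites is printed. The letters TGCCGC, searched on both strands as the core of the site that the imprint-keeping factor ZFP57 binds when methylated, occur in the printed Meg3 window and in none of the other 3. Promoters of 29 of the 35 genes matched by symbol. The letters occurred before 9 of these 29 genes (31%, against 13.1% of all genes) and in 10 of their 44 promoters (22.7%, against 11.6% of all 32851 promoters). The median CpG number of the 44 was 13.5, against 7 over all promoters. A match describes the letters only.

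Imprinted genes are also made by other brain cells, so their log2 CPM were set beside the mean log2 CPM of the tested markers of 4 cell types. These were neurons, astrocytes, oligodendrocyte precursors, and mural cells and fibroblasts. Of 128 relations over all libraries, centred on their group means, 0 passed an adjusted p of 0.05 in permutation tests and 19 had an unadjusted p under 0.05. Other genes were not set beside the same markers, so whether 19 is many for imprinted genes cannot be told. Igf2 had the highest r with the mural and fibroblast markers (r = 0.83, rho = 0.85, permutation p = 0.00253, adjusted p = 0.131), and H19 and Grb10 had r = 0.74 and 0.76 with the same list (adjusted p = 0.131 for each, permutation). Meg3 had r = 0.58 with the precursor markers, and 0.80 without male BPA 2 (adjusted p = 0.131 with all libraries, permutation). For Rian and the precursor markers r was 0.44, and 0.49 without male BPA 2 (adjusted p = 0.312 with all libraries, permutation). Snrpn had r = -0.86 with the astrocyte markers, but -0.43 without male BPA 2, and Nnat 0.72 and 0.29. The neuronal markers were low in all libraries, and Rian had r = 0.72 with them (adjusted p = 0.219, permutation).

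Other imprinted genes and neighbours of the same clusters, 40 in a list, were examined in the same fit. Of these, 27 were tested, 0 were called, and 3 had an unadjusted p under 0.05 over both sexes (11.1%, against 7.69% of all genes): H13 and Begain lower and Bcl2l1 higher. H13, a signal peptide peptidase gene with an imprinted gene inside it, had 55.3, 60.5, 57.6 and 53.9 CPM in female BPA libraries, against 89.5, 97.7, 90.4 and 96 CPM in female controls. The female groups do not overlap, as was so for 3.33% of all genes. In males both levels occurred in both groups, with 51.9, 102, 48.3 and 100.3 CPM after BPA and 92.4, 53.2, 102 and 94.2 CPM in controls. The log2 fold change of H13 was -0.72 ± 0.24 in females (adjusted p = 0.999) and -0.47 ± 0.17 over both sexes (adjusted p = 0.492, limma-voom). Begain, which lies beside the Dlk1 cluster, averaged 17.5 ± 6.01 CPM after BPA and 24.6 ± 6.88 CPM in controls (SD, n = 8 each, adjusted p = 0.547, limma-voom). Bcl2l1, a survival factor, averaged 211 ± 26.7 CPM after BPA and 185 ± 11.8 CPM in controls (adjusted p = 0.533). Snhg14, the transcript antisense to Ube3a, was next, at 27.6 ± 3.58 CPM after BPA and 29.9 ± 2.77 CPM in controls (log2 fold change -0.13 ± 0.07, adjusted p = 0.742).

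Of 10 factors that keep imprints, 9 were tested and 0 were called. Arid4a, a chromatin-binding factor, averaged 31 ± 3.14 CPM after BPA and 27.6 ± 2.3 CPM in controls (SD, n = 8 each), with a log2 fold change of 0.17 ± 0.07 (unadjusted p = 0.0275, adjusted p = 0.562, limma-voom). Zfp445, which binds imprinted control regions, had 0.07 ± 0.04 (adjusted p = 0.767) and Ctcf, the insulator protein of the H19 control region, -0.06 ± 0.04 (adjusted p = 0.805). Uhrf1, which guides maintenance methylation, had -0.15 ± 0.13 (adjusted p = 0.848).

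Apart from exposure, no imprinted gene differed between the sexes after adjustment, where 0.0673% of all genes did. At an unadjusted p under 0.05 there were 2 (6.25%, against 4.35% of all genes), both lower in females. With 1 library left out in turn there were 0 to 5: 0 without male BPA 4, male control 2, male control 4 or female control 2, and 5 without male BPA 2 (15.6%, against 9.74% of all genes). Peg13, a brain non-coding RNA, had a difference of -0.15 ± 0.07 and Zrsr1, a splicing factor retrogene, -0.14 ± 0.06 (females minus males, adjusted p = 0.999 for each, limma-voom).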

How the data were processed

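The authors deposited RNA-seq counts per gene for 16 libraries of O4-sorted brain cells. The submitters' processing notes name bcl2fastq 2.20.0.422, then STAR 2.5.3a, then HTSeq 0.6.1p1, and also DESeq2 1.16.1; the build they name is mm39. Values normalised by the authors per kb of transcript stand beside the counts in the deposited table and were used only to compare levels between genes. An automated unit check could not parse the table, so the counts were judged from their values (whole numbers), and limma-voom replaced the count test that had been planned.

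Symbols came from GENCODE release M21 for 31717 of 32207 genes, and promoters from RefSeq (GRCm38.p6). No other coordinates are given, as the builds differ. Testing required at least 10 counts in enough libraries for a group of 4, and 15 in total, which left 16339 genes with 99.947% of all counts. Scaling was by trimmed mean of M values, computed anew, and limma 3.58.1 in R 4.3.3 fitted 1 coefficient per group with robust empirical Bayes. All tests are two-sided, with Benjamini-Hochberg adjustment at 0.05. CPM are counts relative to the scaled total, and differences are log2 fold changes ± SE. Correlations used log2 CPM with a prior count of 2, and 100000 permutations within groups (scipy 1.17.1). The fit was also run on simulated counts with known changes. That run used the same spread setting for all genes, so it does not cover genes of wide spread such as Airn and Dlk1.

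Totals of 23603816 to 42575326 counts set the precision, and limits drawn from 0 counts cover counting error only. The imprinted genes and all lists were chosen with earlier results of these data known. Genes given in full were those with an unadjusted p under 0.05 in any contrast with exposure, the 8 highest per length, and H19, Igf2, Meg3, Peg3, Snrpn and Ube3a. From the other lists up to 4 genes by smallest p over both sexes were named. Whether replicate numbers pair the libraries was not settled. The design text gives 250 µg/mL of BPA in the water, which does not match the labelled dose on an ordinary intake, so the dose is printed as labelled. Alternatives were another scaling, other filters, library totals before the filter (added after seeing the data), a replicate block, left-out libraries and fits of 1 sex. A chi-square per gene of 15.8 to 131 between libraries of one group gave no sign of a repeated deposit.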

Additional observations from a re-analysis of the deposited data

Results flagged for a closer look

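In 7 of 128 groups of 4 libraries, 1 library lay apart from the other 3 in log2 CPM, by a gap past Dixon's 95% critical value. Chance flags about 1 in 20 groups. The library male BPA 2, with the most astrocyte RNA, was the lowest of its group for Mkrn3 at 9.38 CPM and the highest for Nnat at 90.8 CPM. Airn was lowest in male BPA 1 at 0.349 CPM, where the other 3 exposed male libraries had 1.77 to 1.91 CPM. H19 was highest in male control 2 at 1.26 CPM, Meg3 lowest in female control 1 at 10.7 CPM and Asb4 highest in female control 4 at 0.471 CPM. Peg13 was lowest in female BPA 4 at 47.3 CPM, where the other 3 exposed female libraries had 51.2 to 51.3 CPM. What sets these libraries apart was not tested.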

How the results depend on the processing

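None of the 32 tested imprinted genes was called in any contrast under any alternative run. The planned DESeq2 test was not run. The number of all genes called moved: over both sexes it was 3, against 0 under the stricter filter, 0 with a replicate block, 0 without male BPA 2 and female BPA 1 together, and 0 to 5 when 1 library was left out. In males it was 1, against 2 with no filter, 0 under the stricter filter, 0 without those 2 libraries, 4 when males were fitted alone and 0 to 3 with 1 library left out. In females it was 0, against 2 with no filter and 1 when fitted alone. For the difference between the sexes it was 0, and 0 to 3 with 1 library left out. The 3 pairs of neighbours that passed on r became 1 without male BPA 2. Same-numbered libraries correlated between -0.36 and 0.43, 11 of 24 pairs above 0.1. Libraries of different numbers were not set beside them, so these values cannot tell whether a number marks a pairing.

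Differences over both sexes near 0 changed sign with the libraries used, and the cause was not tested. Without male BPA 2 and female BPA 1 together the log2 fold change was -0.04 for H19, -0.01 for Usp29, -0.02 for Zim1, 0.02 for Mkrn3, -0.09 for Grb10 and 0.02 for Igf2r. With 1 library left out it ran between -0.03 and 0.24 for H19, -0.05 and 0.11 for Cdkn1c, -0.03 and 0.11 for Usp29, -0.17 and 0.05 for Meg3, -0.08 and 0.01 for Mkrn3, -0.01 and 0.07 for Snrpn, 0.00 and 0.05 for Sgce, -0.10 and 0.13 for Grb10, -0.08 and 0.12 for Plagl1, -0.20 and 0.00 for Nnat, -0.09 and 0.00 for Blcap, -0.01 and 0.06 for Peg13, -0.05 and 0.00 for Igf2r, and -0.25 and 0.03 for Rasgrf1. Over both sexes the value of Airn stayed between 0.94 and 1.40 wherever it was tested (adjusted p 0.163 to 0.733, limma-voom). The stricter filter left Airn untested, as it reached 1 CPM in only 6 libraries. Genes under about 1.5 CPM are limited by depth.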
